A study of Homo sapiens with 50 samples.

Results

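The genes of cholesterol synthesis and of its control by SREBP2 were followed in HepaRG, a human liver cell line that was used in its differentiated state, a mix of cells like hepatocytes and like bile duct epithelium. The set held 28 of the 70959 named genes and assembled loci in the table, chosen by gene name: 8 of the mevalonate arm, 13 of the squalene and sterol arm, 4 of SREBP2 control and 3 of sterol transport and uptake. Of these, 27 reached 1 FPKM in at least 5 libraries and were tested. The sterol transporter NPC1L1 did not, with at most 0.148 FPKM in any library. FPKM counts fragments per transcript length and library size, and a gene's level here is the sum over the transcripts that carry its name.

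Cells were exposed from day 8 to day 14 to quizalofop-p-ethyl, isoxaflutole or mesotrione, each at 0.1 uM, 10 uM and 1 mM, and set beside 1 control group. Quizalofop-p-ethyl is an aryloxyphenoxypropionate herbicide that blocks acetyl-CoA carboxylase in grasses, and isoxaflutole and mesotrione block an enzyme of tyrosine degradation in plants. The medium of these cells held 2% fetal bovine serum and 1% DMSO, and every group was this 1 cell line. Each group had 5 libraries, 50 in all. Whether the 5 came from separate cultures is not stated in the labels, and p-values then reflect the spread among libraries, which may be technical. Which sequencing pool held each library is not given in the labels either, and no term for it was fitted.

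Cholesterol is built from acetyl-CoA through mevalonate, isoprenoid diphosphates, squalene and lanosterol, and the liver is a main site of its synthesis. When sterols in the endoplasmic reticulum are low, SCAP escorts SREBP2 to the Golgi, where it is cleaved, and the released part enters the nucleus and activates genes of the pathway. When sterols are high, INSIG1 and INSIG2 hold SCAP in place. SREBP2 is known to act at sterol regulatory elements near gene starts, often beside a CCAAT box bound by NF-Y.

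The 250 bases before the start of 4 members are printed because these genes hold the regulator, 2 of the 5 enzymes that rose and the 1 member that fell with quizalofop-p-ethyl at 1 mM. They are RefSeq sequences of build GRCh38.p14, 5′ to 3′ on the gene's strand, with CCAAT boxes and the sterol regulatory element letters TCACNCCAC in capitals on either strand. The coordinates are chr22:41832855-41833104 on the plus strand for SREBF2, chr16:88663092-88663341 on the minus strand for MVD, chr11:71448394-71448643 on the minus strand for DHCR7 and chr5:154850604-154850853 on the minus strand for FAXDC2.
SREBF2: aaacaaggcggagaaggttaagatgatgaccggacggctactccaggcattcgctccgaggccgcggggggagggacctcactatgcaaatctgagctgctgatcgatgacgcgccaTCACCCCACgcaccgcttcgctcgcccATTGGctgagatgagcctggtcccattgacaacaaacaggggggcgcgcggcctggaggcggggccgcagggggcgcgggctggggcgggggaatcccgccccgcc
MVD: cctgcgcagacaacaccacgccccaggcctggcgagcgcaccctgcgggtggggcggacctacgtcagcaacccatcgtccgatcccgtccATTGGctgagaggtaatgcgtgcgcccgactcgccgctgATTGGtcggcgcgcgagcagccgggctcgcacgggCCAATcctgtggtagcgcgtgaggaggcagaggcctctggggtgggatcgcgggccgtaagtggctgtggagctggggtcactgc
DHCR7: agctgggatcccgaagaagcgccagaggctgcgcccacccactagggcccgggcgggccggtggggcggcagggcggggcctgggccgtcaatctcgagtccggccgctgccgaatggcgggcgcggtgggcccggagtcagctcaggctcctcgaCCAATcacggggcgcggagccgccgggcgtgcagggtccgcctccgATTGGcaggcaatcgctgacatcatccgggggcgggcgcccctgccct
FAXDC2: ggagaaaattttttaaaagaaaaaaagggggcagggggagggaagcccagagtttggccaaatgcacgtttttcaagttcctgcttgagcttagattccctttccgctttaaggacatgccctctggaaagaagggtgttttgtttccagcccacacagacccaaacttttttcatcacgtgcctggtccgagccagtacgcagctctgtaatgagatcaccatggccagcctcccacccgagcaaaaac
In these windows SREBF2 held 1 match to the sterol element letters and 1 CCAAT box, MVD held 3 CCAAT boxes, DHCR7 held 2, and FAXDC2 held no match to either. RefSeq gives DHCR7 another window, chr11:71449044-71449293, with no match. The DHCR7 window with more CCAAT boxes was the one chosen for printing. Of the other risen genes, LSS held 1 CCAAT box, CYP51A1 held none, like FAXDC2, and SQLE had no entry. The windows of DHCR7, CYP51A1 and FAXDC2, and of some other members, lie inside their gene spans in the table. For these genes starts further upstream were not scanned. RefSeq entries were found for 25 of the 28 members. CCAAT stood in at least 1 window of 19 of these 25, 76.0%, against 37.0% of 27305 genes. The 27305 were not limited to genes expressed in these cells. TCACNCCAC stood in 1 of the 25, SREBF2 itself, against 1.09% of those genes. A match is a description of letters, and its use in these cells was not measured. Only these letters in these 250 bases were searched, so the lack of a match does not show that a gene has no such element.

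In 49 libraries an estimated 7240000 to 34440000 fragments were behind the values, and 13062 to 16335 genes reached 1 FPKM. One library of the 10 uM quizalofop-p-ethyl group, replicate 5, had an estimated 3750000 fragments and 5375 genes at 1 FPKM and was left out, so that group held 4 libraries. Replicate 5 at 1 mM of the same compound also differed from its group, which touches most results here. It was the lowest of its group for 22 of the 27 tested members. Its ALB was 56.6 FPKM, against 386 to 2719 FPKM in the other 4 libraries of the group and 8217 to 10318 FPKM in control. It stayed in the comparisons, and for those with quizalofop-p-ethyl at 1 mM the values without it are given for each member described and for the other genes whose call ended or began.

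Quizalofop-p-ethyl at 1 mM raised 5 members and lowered 1. The risen genes were MVD, SQLE, LSS, CYP51A1 and DHCR7, and the gene that fell was FAXDC2. These 6 of 27 are 22.2% of the members, against 38.8% of all 17875 genes tested called in that comparison, so the share of called members was below the background. Of all genes 15.4% were called higher and 23.4% lower. The 5 of 27 members called higher are a share near the first of these. The 1 of 27 called lower is a share below the second. The median log2 fold change was 0.19 over the members and -0.09 over all genes. Without replicate 5 of quizalofop-p-ethyl at 1 mM, 7 members were called higher and 1 lower, and MSMO1 and NSDHL were the additions. That fit called 35.5% of all genes, 15.2% higher and 20.3% lower. Calls are limma tests on log2(FPKM + 1) with Benjamini-Hochberg adjusted p under 0.05, and fold changes on that scale understate the change of genes near 0.

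**Figure D1:**
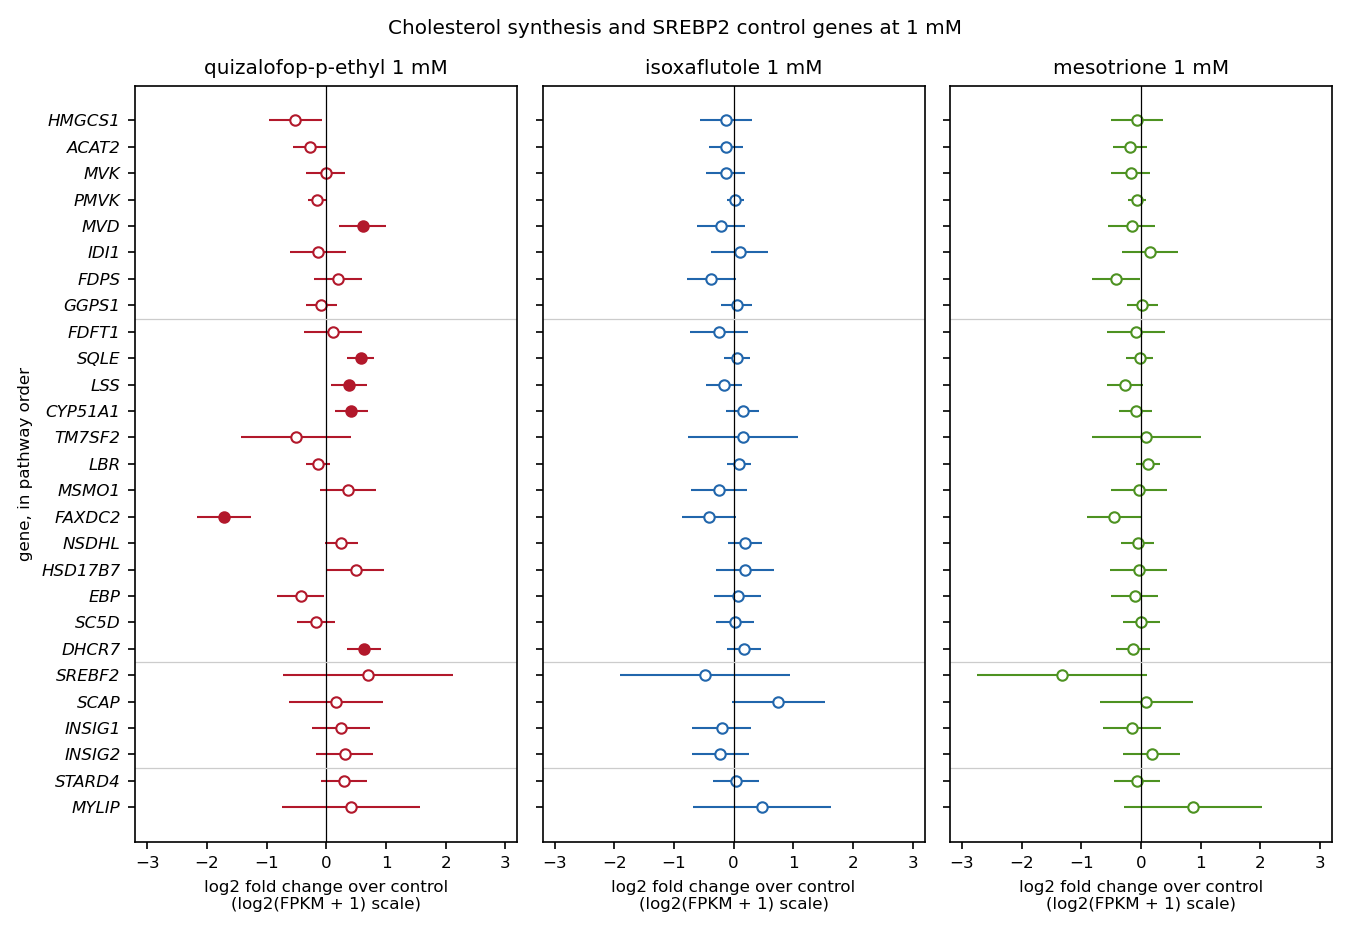
Log2 fold change over control (x axis, log2(FPKM + 1) scale) of the 27 tested members (y axis, in pathway order), one panel per compound at 1 mM. Points are estimates, lines their 95% confidence intervals, filled points have an adjusted p under 0.05, and grey lines part the mevalonate arm, the sterol arm, SREBP2 control and transport. The 6 filled points are all in the quizalofop-p-ethyl panel, with FAXDC2 at -1.71 far to the left.

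In the mevalonate arm, which leads from acetoacetyl-CoA to the isoprenoid diphosphates, 1 of 8 genes rose and none fell, 12.5% of the arm against the 38.8% of all genes called. MVD, the decarboxylase that makes isopentenyl diphosphate (chromosome 16, 88651935 to 88663161, GRCh38, minus strand), had 33.8, 32.5, 32.5, 27.2 and 15.9 FPKM in the 5 libraries of quizalofop-p-ethyl at 1 mM, against 20.02, 22.3, 16.2, 14.97 and 15.7 FPKM in control. In 4 exposed libraries it was above every control library, and replicate 5 lay within the control range. The means were 28.4 ± 7.42 FPKM with quizalofop-p-ethyl and 17.8 ± 3.17 FPKM in control (SD, n = 5 each), a log2 fold change of 0.61 (SE 0.20, limma adjusted p = 0.0112). Without replicate 5 it was 0.80.

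The other genes of the arm did not pass the test. HMGCS1, the synthase that makes HMG-CoA, averaged 16.0 FPKM with quizalofop-p-ethyl at 1 mM and 22.4 FPKM in control (log2 fold change -0.52, limma adjusted p = 0.0558). Its value moved to -0.30 without replicate 5. It passed in 4 of the 10 fits that left out 1 library, with limma adjusted p of 0.0277 to 0.042. These left out replicate 2, 3 or 4 of quizalofop-p-ethyl or replicate 4 of control. With unnamed transcripts added, as described below, it was at -0.34, and at -0.04 without replicate 5. ACAT2, the cytosolic thiolase of the first step, had a log2 fold change of -0.27, and -0.13 without replicate 5. PMVK, the phosphomevalonate kinase, was at -0.15, and -0.14 without it. IDI1, the isopentenyl diphosphate isomerase, was at -0.14, and 0.06 without it. MVK, the mevalonate kinase, was at -0.01 and GGPS1, which makes geranylgeranyl diphosphate, at -0.08, and without replicate 5 they stood at 0.15 and 0.02 in that order. FDPS, which makes farnesyl diphosphate, was at 0.19, and 0.40 without it, and was the most abundant member in control, 82.1 ± 6.68 FPKM (SD, n = 5). For IDI1, MVK and GGPS1 the sign of the estimate turned on that 1 library.

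In the sterol arm, which turns farnesyl diphosphate into squalene, lanosterol and cholesterol, 4 of 13 genes rose and 1 fell, 38.5% of the arm and close to the 38.8% of all genes called. SQLE, the squalene epoxidase (chromosome 8, 124998497 to 125022283, plus strand), had 43.6, 36.1, 36.4, 33.4 and 21.9 FPKM with quizalofop-p-ethyl at 1 mM, against 23.6, 22.7, 22.8, 19.7 and 22.3 FPKM in control. The 4 higher libraries lay above all controls, and replicate 5 lay within the control range. The means were 34.3 ± 7.88 FPKM with quizalofop-p-ethyl and 22.2 ± 1.49 FPKM in control (SD, n = 5 each), a log2 fold change of 0.57 (SE 0.11, limma adjusted p = 3.53e-05), and 0.72 without replicate 5.

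LSS, the lanosterol synthase that closes the sterol rings (chromosome 21, 46188141 to 46228824, minus strand), had 29.5, 31.9, 34.9, 33.03 and 27.7 FPKM with quizalofop-p-ethyl at 1 mM, against 25.9, 28.6, 18.4, 23.7 and 23.8 FPKM in control. Only the lowest exposed and the highest control library crossed. The log2 fold change was 0.38 (SE 0.15, limma adjusted p = 0.0383). The call ended without any 1 of replicates 2, 3 or 4 of quizalofop-p-ethyl or of replicates 3, 4 or 5 of control, with adjusted p of 0.0626, 0.0862, 0.0708, 0.139, 0.0585 and 0.0585 in that order. Without replicate 5 of quizalofop-p-ethyl it was 0.42 (limma adjusted p = 0.0323).

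CYP51A1, the lanosterol demethylase (chromosome 7, 92112151 to 92142952, minus strand), had 74.2, 75.6, 67.01, 68.9 and 39.9 FPKM with quizalofop-p-ethyl at 1 mM, against 48.3, 41.5, 50.7, 46.3 and 49.5 FPKM in control. Replicate 5 was below every control library and the other 4 above them all. The means were 65.1 ± 14.6 FPKM with quizalofop-p-ethyl and 47.3 ± 3.59 FPKM in control (SD, n = 5 each), a log2 fold change of 0.42 (SE 0.14, limma adjusted p = 0.0113), and 0.59 without replicate 5. Its locus overlaps LRRD1 in the table, and reads shared between them could not be told apart.

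DHCR7, the 7-dehydrocholesterol reductase of the last step (chromosome 11, 71428193 to 71452868, minus strand), had a log2 fold change close to that of MVD. Its values were 107, 90.9, 97.0, 94.3 and 42.0 FPKM with quizalofop-p-ethyl at 1 mM, against 59.7, 51.02, 43.9, 55.1 and 55.4 FPKM in control. Replicate 5 was again below every control library and the other 4 well above them. The means were 86.3 ± 25.5 FPKM with quizalofop-p-ethyl and 53.01 ± 5.96 FPKM in control (SD, n = 5 each), a log2 fold change of 0.63 (SE 0.14, limma adjusted p = 2.53e-04), and 0.87 without replicate 5. Of its 2 RefSeq windows the one printed above holds 2 CCAAT boxes and the other holds none.

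FAXDC2, a member of the fatty acid hydroxylase family to which the sterol oxidase MSMO1 also belongs (chromosome 5, 154818491 to 154859252, minus strand), moved the other way. It had 1.48, 0.883, 1.87, 1.78 and 1.02 FPKM with quizalofop-p-ethyl at 1 mM, against 6.71, 9.28, 6.48, 7.57 and 4.5 FPKM in control. The groups did not overlap, and here replicate 5 was like the rest of its group. The means were 1.41 ± 0.443 FPKM with quizalofop-p-ethyl and 6.91 ± 1.74 FPKM in control (SD, n = 5 each), a log2 fold change of -1.71 (SE 0.22, limma adjusted p = 2.47e-08), and -1.65 without replicate 5.

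**Figure D2:**
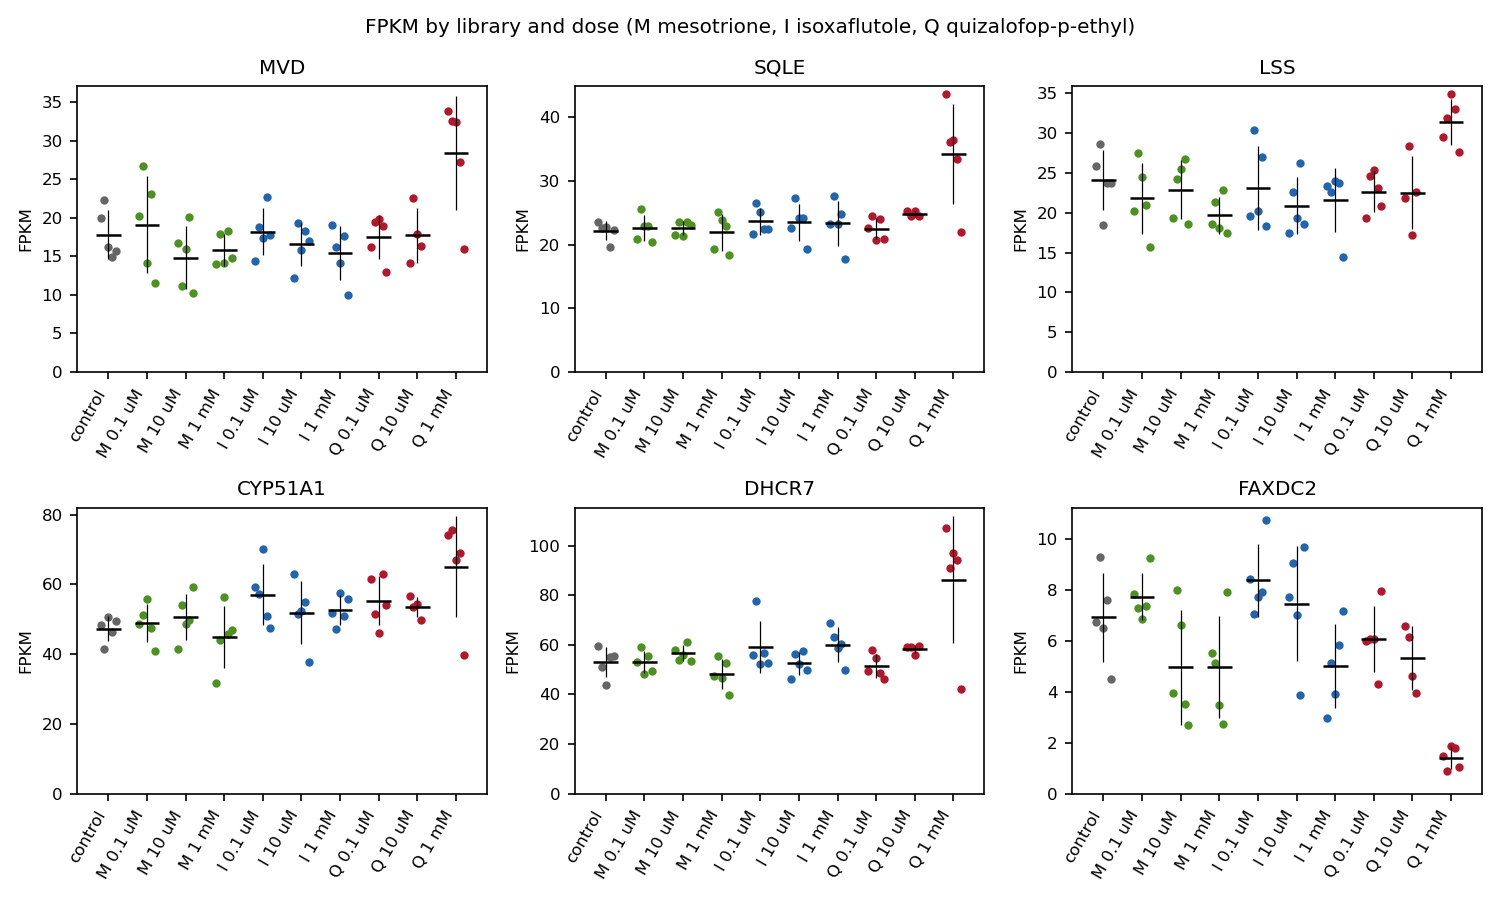
FPKM (y axis, linear) of the 6 called members in each library (points) by group (x axis, control then rising dose of each compound), with mean (bar) and SD (line), n = 5 and 4 for quizalofop-p-ethyl at 10 uM. In DHCR7 the last group has 4 libraries from 90.9 to 107 FPKM and 1 at 42.0 FPKM, while FAXDC2 lies at 0.883 to 1.87 FPKM there.

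The remaining sterol arm genes did not pass the test with quizalofop-p-ethyl at 1 mM. MSMO1, the C4-methylsterol oxidase, was at 0.36, HSD17B7, a 3-keto-steroid reductase, at 0.49, NSDHL, a C4-decarboxylase, at 0.25, and FDFT1, the squalene synthase, at 0.12 on the log2 scale. EBP, the sterol isomerase, was at -0.43, TM7SF2 and LBR, both sterol C14 reductases, at -0.50 and -0.14, and SC5D, the lathosterol desaturase, at -0.17. Without replicate 5 MSMO1 was at 0.62 (limma adjusted p = 0.0217) and NSDHL at 0.37 (limma adjusted p = 0.0366), and both then passed. The values without it were 0.61 for HSD17B7, 0.24 for FDFT1, -0.20 for EBP, -0.29 for TM7SF2, -0.02 for LBR and -0.03 for SC5D, and none of these 6 passed.

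**Figure D3:**
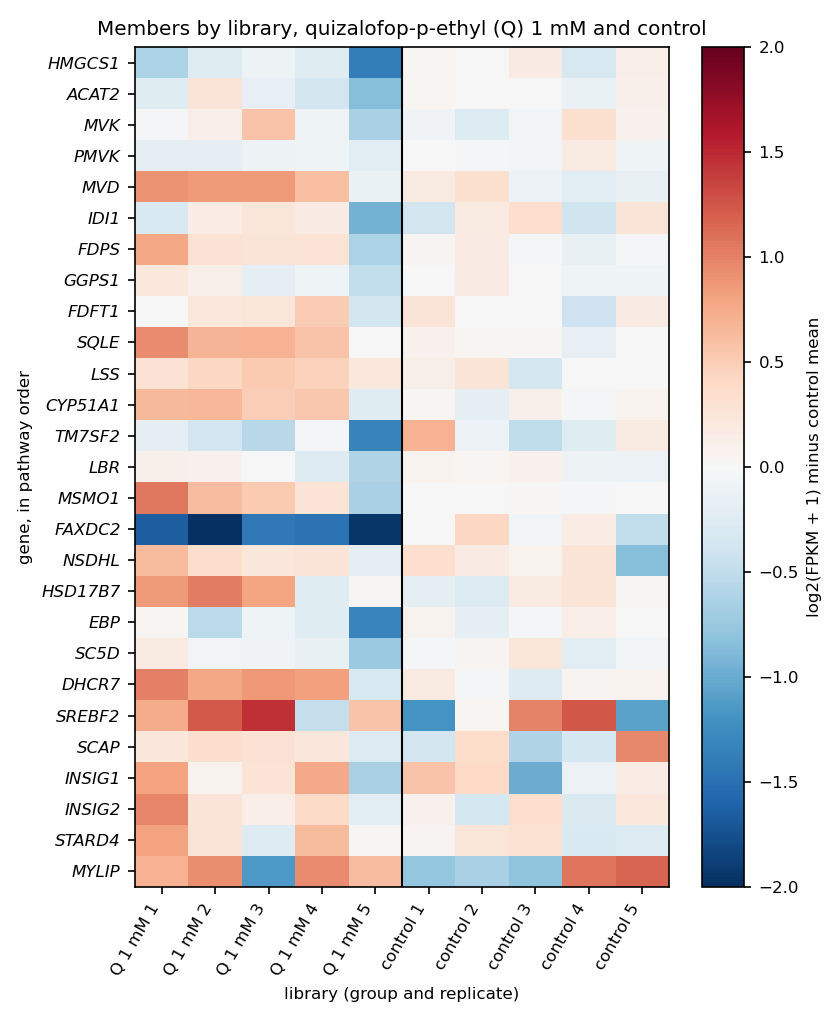
Log2(FPKM + 1) of each tested member (rows) minus its control mean in the 5 libraries of quizalofop-p-ethyl at 1 mM (left of the line) and the 5 of control (right); red is above and blue below the control mean. Replicate 5 has a median over members of -0.36, against 0.22 to 0.29 in the other 4 exposed libraries.

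The control step was next. SREBF2, the gene of SREBP2 (chromosome 22, 41833079 to 41907308, plus strand), had 34.8, 48.9, 57.8, 14.3 and 30.6 FPKM with quizalofop-p-ethyl at 1 mM, against 8.30, 21.04, 41.5, 49.3 and 9.12 FPKM in control. Both groups spread widely and overlapped. The log2 fold change was 0.70 with a 95% interval from -0.72 to 2.13 (limma adjusted p = 0.468), and it was 0.74 without replicate 5.

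SCAP, the escort of SREBP2 (chromosome 3, 47413694 to 47477126, minus strand), had 17.3, 18.8, 18.1, 17.2 and 11.9 FPKM with quizalofop-p-ethyl at 1 mM, against 11.1, 19.2, 9.30, 11.2 and 29.3 FPKM in control (log2 fold change 0.16, interval -0.62 to 0.94). The control range enclosed every exposed library. INSIG1, an SREBP2 target that retains SCAP (chromosome 7, 155297776 to 155310235, plus strand), had 42.6, 25.3, 29.2, 41.2 and 15.1 FPKM with quizalofop-p-ethyl, against 36.3, 32.1, 11.5, 22.0 and 26.8 FPKM in control (0.25, interval -0.24 to 0.74). INSIG2, its partner (chromosome 2, 118088452 to 118110997, plus strand), had 10.0, 5.72, 5.18, 6.29 and 3.83 FPKM with quizalofop-p-ethyl, against 4.97, 3.42, 6.10, 3.58 and 5.47 FPKM in control (0.31, interval -0.17 to 0.79). None of these 4 passed the test, and the groups overlapped in all 4. Without replicate 5 SCAP stood at 0.27, INSIG1 at 0.47 and INSIG2 at 0.44, and none of them passed. In transport and uptake, STARD4, a carrier of sterol between membranes, was at 0.29, and 0.36 without replicate 5. MYLIP, which degrades lipoprotein receptors, was at 0.41, and 0.36 without it. Neither passed in either fit.

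The wide spread of SREBF2, SCAP, INSIG1 and MYLIP moved with how the table names transcripts. Named transcripts held 13.6% to 99.3% of the FPKM of the SREBF2 locus over the 49 libraries, 17.3% to 90.5% for SCAP, 25.5% to 80.9% for INSIG1 and 7.59% to 100% for MYLIP, and the rest lay in assembled transcripts without a name. The SREBF2 locus in the table also holds CCDC134. For 9 of the 28 members the named transcripts held all of it in every library. When unnamed transcripts were given to the gene they overlap most, a setting chosen after seeing the data, the median within-group coefficient of variation fell to 7.57% for SCAP, against 46.1% with named transcripts alone. For MYLIP it was 11.02%, against 51.1%, and for SREBF2 34.6%, against 89.9965%.

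On these sums SREBF2 had 42.2, 51.5, 58.2, 30.4 and 34.5 FPKM with quizalofop-p-ethyl at 1 mM, against 27.4, 34.4, 44.5, 50.3 and 24.8 FPKM in control (log2 fold change 0.26, interval -0.30 to 0.82). SCAP had 37.4, 34.7, 29.7, 33.4 and 31.8 FPKM with quizalofop-p-ethyl, against 35.95, 31.9, 32.1, 36.3 and 35.7 FPKM in control (-0.04, interval -0.20 to 0.12). INSIG1 had 69.4, 59.1, 58.5, 67.98 and 23.5 FPKM with quizalofop-p-ethyl, against 58.2, 45.3, 45.2, 43.8 and 46.9 FPKM in control (0.13, interval -0.20 to 0.46). The 4 higher libraries of INSIG1 lay above all controls while replicate 5 lay below them all, and the group difference did not pass the test. Without replicate 5 SREBF2 was at 0.33, SCAP at -0.03 and INSIG1 at 0.41 on these sums, and INSIG1 then passed (limma adjusted p = 0.00577).

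MYLIP changed sign on these sums. It had 4.29, 5.54, 3.93, 5.50 and 4.32 FPKM with quizalofop-p-ethyl at 1 mM, against 5.50, 6.8, 5.66, 5.87 and 6.44 FPKM in control, and fell by 0.31 on the log2 scale (limma adjusted p = 0.00589). FDFT1 had 77.3, 85.1, 92.5, 84.6 and 48.6 FPKM with quizalofop-p-ethyl, against 66.1, 54.2, 57.8, 57.4 and 61.5 FPKM in control (0.35, limma adjusted p = 0.0034). EBP had 28.8, 18.8, 26.2, 28.4 and 10.5 FPKM with quizalofop-p-ethyl, against 32.8, 28.4, 26.9, 30.9 and 28.04 FPKM in control (-0.45, limma adjusted p = 0.0146). On these sums 6 members were called higher and 3 lower: the 6 of the named transcripts plus these 3 genes. Over all 18607 genes tested on these sums 46.4% were called, 19% higher and 27.4% lower, so more was called among all genes as well. Without replicate 5 the sums gave 12 members higher and 2 lower, where 43.3% of genes were called, 19.1% higher and 24.2% lower. The genes gained were ACAT2 (0.33), FDPS (0.42), MSMO1 (0.66), NSDHL (0.24), HSD17B7 (0.43) and INSIG1 (0.41). EBP was lost (-0.21, limma adjusted p = 0.172), while MYLIP stood at -0.29 and FDFT1 at 0.51.

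**Figure D4:**
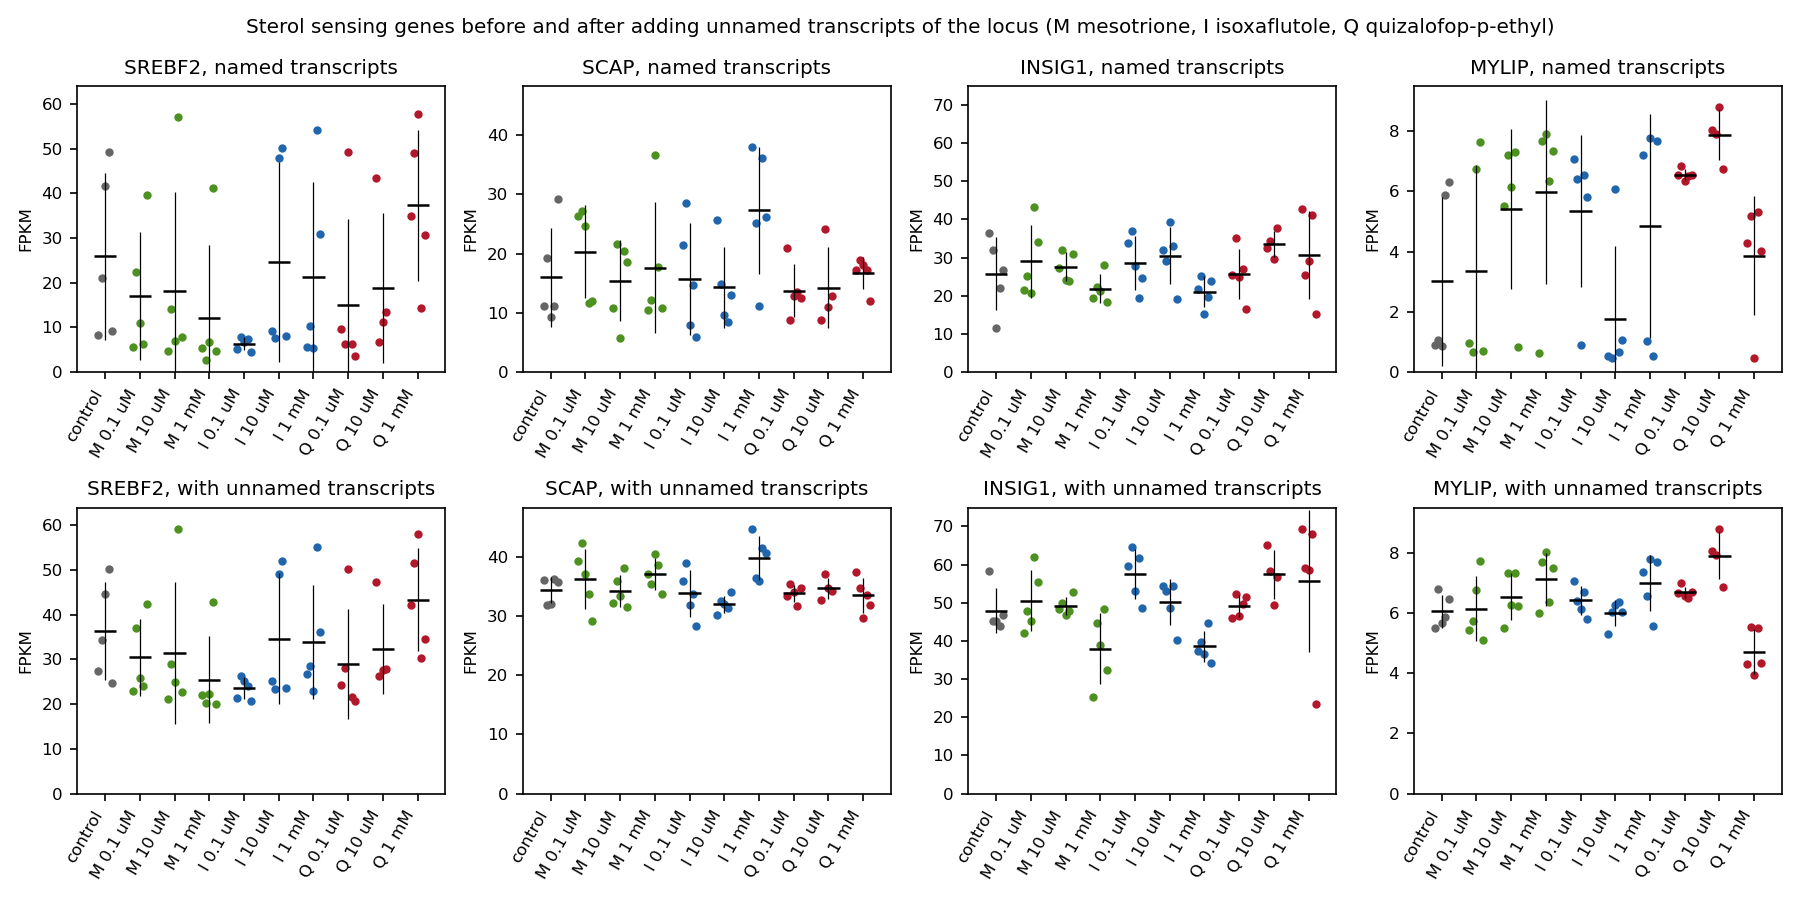
FPKM (y axis, linear) of SREBF2, SCAP, INSIG1 and MYLIP in each library by group (x axis, control then rising dose of each compound), from named transcripts (top) and with unnamed transcripts added by overlap (bottom), with mean (bar) and SD (line). For SCAP in control the named values run from 9.30 to 29.3 FPKM and the fuller sums from 31.9 to 36.3 FPKM.

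Isoxaflutole and mesotrione at 1 mM changed no member past the threshold. Of all genes tested, 3.58% were called with isoxaflutole (1.76% higher, 1.82% lower) and 1.28% with mesotrione (0.252% higher, 1.02% lower). At an unadjusted p under 0.05 there were 0 members with isoxaflutole and 1 with mesotrione, and the share of all genes at that level is not given. DHCR7 had 68.8, 63.1, 58.8, 60.2 and 49.8 FPKM with isoxaflutole and 47.2, 55.5, 46.7, 52.5 and 39.7 FPKM with mesotrione, against the control values given above. SQLE had 23.2, 27.6, 23.3, 24.8 and 17.8 FPKM with isoxaflutole and 19.4, 25.1, 23.9, 23.0 and 18.4 FPKM with mesotrione. Both genes overlapped control in both groups. MVD had 19.1, 16.3, 14.1, 17.6 and 10.1 FPKM with isoxaflutole and 14.1, 17.9, 14.1, 18.3 and 14.7 FPKM with mesotrione. LSS had 23.3, 22.6, 24.0, 23.8 and 14.5 FPKM with isoxaflutole and 18.5, 21.4, 18.1, 22.9 and 17.4 FPKM with mesotrione. Neither gene was above control on average in either group.

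CYP51A1 had 51.8, 47.1, 57.7, 50.8 and 55.9 FPKM with isoxaflutole and 31.8, 43.9, 56.5, 45.7 and 46.8 FPKM with mesotrione. FAXDC2 had 2.95, 5.12, 3.91, 5.82 and 7.16 FPKM with isoxaflutole and 5.51, 5.11, 3.48, 2.74 and 7.88 FPKM with mesotrione, log2 fold changes of -0.42 and -0.45 that did not pass. With unnamed transcripts added, FAXDC2 had 5.65, 6.75, 7.27, 6.95 and 7.29 FPKM with isoxaflutole, against 9.51, 11.3, 9.57, 9.47 and 9.55 FPKM in control, and fell by 0.48 on the log2 scale (limma adjusted p = 0.00561). These groups did not overlap. On the same sums it had 1.62, 1.35, 2.89, 2.39 and 1.04 FPKM with quizalofop-p-ethyl at 1 mM (-1.97, limma adjusted p = 4.94e-19), and -1.85 without replicate 5.

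Among the control genes, SREBF2 had 5.63, 10.4, 5.43, 54.1 and 30.9 FPKM with isoxaflutole and 5.37, 2.75, 6.70, 41.2 and 4.74 FPKM with mesotrione. SCAP had 38.0, 25.1, 11.1, 36.04 and 26.2 FPKM with isoxaflutole and 10.5, 12.2, 36.6, 17.8 and 10.9 FPKM with mesotrione. The ranges of both genes overlapped control in both groups. INSIG1 had 21.7, 25.2, 15.1, 19.6 and 23.9 FPKM with isoxaflutole and 19.5, 22.2, 21.2, 28.1 and 18.2 FPKM with mesotrione. INSIG2 had 1.00, 5.95, 5.65, 4.51 and 4.02 FPKM with isoxaflutole and 5.13, 6.86, 5.28, 3.27 and 6.94 FPKM with mesotrione. Both overlapped control.

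At 10 uM and 0.1 uM no member passed the test in any of the 6 comparisons with control, where limma called 1 gene of 17875 with quizalofop-p-ethyl at 10 uM, 0.00559%, and 0 in the other 5. The lowest adjusted p of any member was 0.934. An unadjusted p under 0.05 was seen in 10 of 162 values, and the share of all genes at that level is not given. DHCR7 averaged 51.4 ± 4.77 FPKM with quizalofop-p-ethyl at 0.1 uM (SD, n = 5) and 58.3 ± 1.64 FPKM at 10 uM (SD, n = 4), and 86.3 ± 25.5 FPKM at 1 mM (SD, n = 5). SQLE averaged 22.5 ± 1.72, 24.9 ± 0.46 and 34.3 ± 7.88 FPKM at those doses. FAXDC2 averaged 6.07 ± 1.29, 5.31 ± 1.25 and 1.41 ± 0.443 FPKM. DHCR7, SQLE and FAXDC2 also passed the test of 1 mM against the lower doses, given next.

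Quizalofop-p-ethyl at 1 mM against its own lower doses called 12 members, 5 higher and 7 lower, where 43.9% of all genes were called, 16.2% higher and 27.7% lower. DHCR7 (0.58), SQLE (0.49), MVD (0.63), LSS (0.47) and FDFT1 (0.52) rose. FAXDC2 (-1.47), HMGCS1 (-0.65), EBP (-0.51), IDI1 (-0.51), LBR (-0.34) and ACAT2 (-0.30) fell, as did PMVK (-0.20). Without replicate 5 at 1 mM the split turned to 7 higher and 3 lower, where 39.8% of genes were called, 15.7% higher and 24.1% lower. The calls of HMGCS1 (-0.44, limma adjusted p = 0.0624), EBP (-0.28, 0.17), IDI1 (-0.30, 0.264) and ACAT2 (-0.16, 0.326) ended, and FDPS (0.46) and CYP51A1 (0.39) passed. The calls kept were DHCR7 (0.82), SQLE (0.63), MVD (0.82), LSS (0.51) and FDFT1 (0.64) higher, and FAXDC2 (-1.41), LBR (-0.22) and PMVK (-0.19) lower. With all libraries CYP51A1 did not pass here (0.23, limma adjusted p = 0.128). Median-ratio scaling likewise gave 7 higher and 3 lower, where 21.3% of genes were called higher and 23.7% lower, and ended the calls of ACAT2, PMVK (-0.08), IDI1 and EBP. When each of the 14 libraries was left out in turn, ACAT2 lost its call in 9 fits, IDI1 in 7 and FDFT1 in 10. With unnamed transcripts added FDFT1 stood at 0.20 (limma adjusted p = 0.0601) and ACAT2 at 0.03 (limma adjusted p = 0.881), neither past the threshold, and PMVK stood at 0.04 in a fit of all 50 libraries (limma adjusted p = 0.908). Isoxaflutole and mesotrione at 1 mM against their own lower doses called no member, where 6.1% of all genes were called with isoxaflutole (3.02% higher, 3.08% lower) and 2.44% with mesotrione (0.604% higher, 1.84% lower). At an unadjusted p under 0.05 there were 6 members with isoxaflutole and 0 with mesotrione. The share of all genes at that unadjusted level is not given, so these counts cannot be set against a background.

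The compounds were also set against each other at each dose, 9 comparisons in all, with p-values adjusted over all genes within each. Quizalofop-p-ethyl at 1 mM had 7 members higher and 2 lower than mesotrione at 1 mM, where 36.1% of genes were called, 14.9% higher and 21.2% lower. Those higher were SREBF2 (2.03), MVD (0.77), DHCR7 (0.76), LSS (0.65), FDPS (0.61), SQLE (0.60) and CYP51A1 (0.51), and those lower FAXDC2 (-1.26) and LBR (-0.26). SREBF2 was 34.8, 48.9, 57.8, 14.3 and 30.6 FPKM with quizalofop-p-ethyl, against 5.37, 2.75, 6.70, 41.2 and 4.74 FPKM with mesotrione, whose replicate 4 lay within the range of quizalofop-p-ethyl. With unnamed transcripts added the SREBF2 difference was 0.77 (limma adjusted p = 0.022). Its call ended without replicate 2 of mesotrione (1.74, limma adjusted p = 0.0686) and without replicate 3 of quizalofop-p-ethyl (1.84, limma adjusted p = 0.0536). FDPS lost its call without replicate 1 of quizalofop-p-ethyl (0.47, limma adjusted p = 0.0721), and LBR in 6 of the 10 fits that left out a library.

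Without replicate 5 of quizalofop-p-ethyl there were 11 members higher and 1 lower than with mesotrione, where 32.4% of genes were called, 14.3% higher and 18.1% lower. LBR did not pass (-0.14, limma adjusted p = 0.243), and MSMO1 (0.65), NSDHL (0.42), HSD17B7 (0.65) and INSIG1 (0.62) passed. The calls kept were SREBF2 (2.07), MVD (0.95), DHCR7 (1.00), LSS (0.69), FDPS (0.82), SQLE (0.74), CYP51A1 (0.68) and FAXDC2 (-1.20). Median-ratio scaling gave 9 members higher and 1 lower, where 18.3% of genes were called higher and 19.2% lower. With the compared groups alone CYP51A1 (limma adjusted p = 0.0593) and LBR (0.178) lost their calls. In the fit of all 50 libraries MVD, FDPS, SQLE, CYP51A1 and LBR lost theirs.

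Against isoxaflutole at 1 mM, quizalofop-p-ethyl at 1 mM had 6 members higher and 3 lower, where 35.7% of genes were called, 14.0% higher and 21.7% lower. Those higher were MVD (0.82), MSMO1 (0.61), FDPS (0.57), LSS (0.53), SQLE (0.52) and DHCR7 (0.45), and those lower FAXDC2 (-1.29), EBP (-0.50) and PMVK (-0.18). Without replicate 5 of quizalofop-p-ethyl there were 9 higher and 1 lower, where 32.2% of genes were called, 13.4% higher and 18.7% lower. EBP (-0.27, limma adjusted p = 0.273) and PMVK (-0.17, limma adjusted p = 0.0922) did not pass then, and CYP51A1 (0.43), INSIG1 (0.68) and INSIG2 (0.66) did. The calls kept were MVD (1.01), MSMO1 (0.86), FDPS (0.77), LSS (0.58), SQLE (0.66), DHCR7 (0.69) and FAXDC2 (-1.23). MSMO1 stood at 0.29 (limma adjusted p = 0.27) without replicate 1 of isoxaflutole and lost its call in 4 of the 10 fits that left out a library, as did PMVK in 6, EBP in 5 and FDPS in 3. The lowest value of FDPS was 0.39 (limma adjusted p = 0.134), without replicate 5 of isoxaflutole. With the compared groups alone DHCR7 lost its call (limma adjusted p = 0.147), as did MSMO1 (0.239), FDPS (0.124), EBP (0.139) and PMVK (0.146). In the fit of all 50 libraries only FAXDC2 kept its call. Median-ratio scaling gave 8 higher and 1 lower, where 18.2% of genes were called higher and 18.9% lower, and PMVK stood at -0.08.

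Isoxaflutole against mesotrione at 1 mM called no member, where 0.33% of genes were called (0.285% higher, 0.0448% lower), and 1 member had an unadjusted p under 0.05. At 10 uM and 0.1 uM no member passed in any pair of compounds, where at most 0.0112% of genes were called, and at most 3 members per pair had an unadjusted p under 0.05. For these unadjusted counts the share of all genes is not given.

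Other genes known as targets of the SREBP factors, which also drive fatty acid synthesis, moved with quizalofop-p-ethyl at 1 mM: 6 of 11 rose and 2 fell, 72.7% of the list beside the 38.8% of all genes called. SCD, the fatty acid desaturase, had 941, 549, 625, 570 and 135 FPKM with quizalofop-p-ethyl, against 250, 223, 233, 237 and 220 FPKM in control (1.04, limma adjusted p = 4.86e-04). As with DHCR7, 4 libraries were above all controls and replicate 5 below them. LPIN1, a phosphatidate phosphatase (0.86), NPC1, the lysosomal sterol exporter (0.63), and FASN, the fatty acid synthase (0.62), also rose. TMEM97 (-0.82) and NPC2, the lysosomal carrier that hands sterol to NPC1 (-0.60), fell. The median of the list was 0.41. Without replicate 5 the same numbers were called, 6 higher and 2 lower, with SCD at 1.49, FASN at 0.90 and TMEM97 at -0.57.

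Of 9 reported genes of SREBP processing and sterol-regulated degradation 3 fell past the limma threshold, 33.3% beside the 38.8% of all genes called. SREBF1, the gene of the related factor SREBP1, had 17.5, 12.4, 17.1, 29.1 and 11.3 FPKM with quizalofop-p-ethyl, against 42.1, 38.0, 37.2, 46.4 and 29.9 FPKM in control (-1.16). ERLIN2 (-0.37) and the site-1 protease MBTPS1 (-0.28) fell too. Without replicate 5 ERLIN2 did not pass (-0.29, limma adjusted p = 0.0567), and SREBF1 was at -1.04 and MBTPS1 at -0.21.

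Of 8 tested genes of sterol efflux and LXR action, 3 rose and 2 fell, 62.5% beside the same 38.8%. The exporter ABCA1 had 41.8, 26.3, 25.7, 28.4 and 14.0 FPKM with quizalofop-p-ethyl, against 14.7, 15.5, 12.9, 15.4 and 15.8 FPKM in control (0.76). ABCG1, another exporter (1.15), and NR1H2, which encodes LXR beta (0.36), rose as well. ABCG8, a subunit of the exporter of sterol into bile, was listed at 0 in all 5 libraries of quizalofop-p-ethyl, against 6.95, 8.47, 6.00, 8.70 and 7.74 FPKM in control, and SMPDL3A fell (-0.97). Without replicate 5 SMPDL3A did not pass (-0.71, limma adjusted p = 0.0746) and LPCAT3, a phospholipid acyltransferase, did (0.41). In the isoprenoid branches 2 of 10 rose, FNTA (0.81) and DHDDS (0.42), and 4 fell, COQ2 (-0.88), FNTB (-0.57), RABGGTA (-0.36) and PGGT1B (-0.34), 60% of the list. Without replicate 5 it was 1 higher and 3 lower, 40% where 35.5% of all genes were called, and FNTA (0.69, limma adjusted p = 0.0816) and PGGT1B (-0.20, limma adjusted p = 0.18) did not pass. With isoxaflutole at 1 mM the only gene of these 4 lists past the threshold was LPCAT3 (0.58), and with mesotrione there was none.

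Markers of the cell types moved with quizalofop-p-ethyl at 1 mM, where 23.4% of all genes were called lower and 15.4% higher. All 10 hepatocyte markers fell, and their summed level was 216 to 5292 FPKM with quizalofop-p-ethyl, against 18412 to 21760 FPKM in control, with no marker at 0. Replicate 5 was the library at 216 FPKM, and without it 9 of the 10 passed, APOA2 standing at -0.91 (limma adjusted p = 0.105). Of 5 tested biliary markers 3 fell, and the summed level was 85.5 to 185 FPKM, against 635 to 725 FPKM in control, with EPCAM and CFTR at 0. Of 6 tested mesenchymal markers 4 fell and 1, PDGFRB, rose (1.18, and 0.98 with limma adjusted p = 0.0848 without replicate 5), summing to 14.7 to 26.5 FPKM, against 52.3 to 67.9 FPKM in control, with COL1A2 at 0. Of 2 tested leukocyte markers 1 fell, and the list summed to 2.73 to 14.4 FPKM, against 6.81 to 30.8 FPKM in control, with PTPRC at 0. Mitochondrial mRNA took 0.151% to 1.12% of the summed FPKM with quizalofop-p-ethyl and 0.207% to 0.363% in control. Of the hepatocyte markers 2 of 10 also fell with isoxaflutole and 2 with mesotrione at 1 mM, with summed levels of 9240 to 17570 FPKM with isoxaflutole and 11439 to 19155 FPKM with mesotrione. Over all genes 1.82% were called lower with isoxaflutole and 1.02% with mesotrione. In bulk RNA fewer cells of a type and less RNA per cell cannot be told apart, and the part of these changes in the members' values was not tested.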

How the data were processed

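RNA of 50 HepaRG libraries, 5 in each of 10 groups, was sequenced as 75 bp paired reads from stranded libraries without ribosomal RNA, per the labels' protocols. HISAT, HISAT2, StringTie and GRCh38 are named in the submitters' processing notes, without versions or roles. The authors deposited FPKM values for 239290 transcripts, 199173 of them named. FPKM is scaled to library size, so abundant RNA lowers other values. In 20 of the columns that the authors deposited some FPKM lay slightly below 0, and these 24 values were set to 0. A line broken in the table was rejoined. Depth was estimated from the FPKM step of 1 fragment in 17521 single-exon transcripts.

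FPKM of transcripts with a gene's name were summed, and 70959 genes and loci resulted. Of these, 17875 had at least 1 FPKM in at least 5 libraries and were tested with limma 3.58.1 (R 4.3.3) on log2(FPKM + 1), fitting 1 mean per group over 49 libraries with trend and robust variance. P-values were adjusted by Benjamini-Hochberg within each of 21 comparisons, with a threshold of 0.05. The shallow library of quizalofop-p-ethyl at 10 uM was left out. Every library value is printed for members past the threshold against control whose higher group averaged at least 5 FPKM, and for SREBF2, SCAP, INSIG1 and INSIG2. MYLIP, FDFT1 and EBP were added after their values were seen. Up to 4 genes per direction past the threshold are named in each other list. The members and lists were chosen with earlier results of these data known. A gene of the SREBP processing list is not reported here.

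The fit was repeated with a pseudocount of 0.1, without the filter, with median-ratio scaling, on the compared groups alone, with runs of sample numbers as a replicate block, on all 50 libraries, with unnamed transcripts of a locus added in 2 ways, and without each library. Adding them by overlap, with and without replicate 5 of quizalofop-p-ethyl at 1 mM, was chosen after seeing the data. The fit was tested on simulated data, and no library column equalled another. Promoter sequences are from RefSeq, GRCh38.p14, 250 bases before the start. Python 3.11.15 with pandas 2.3.3, numpy 2.4.6 and matplotlib 3.10.9 served for tables and plots.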

Additional observations from a re-analysis of the deposited data

Results flagged for a closer look

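Within-group outliers were looked for in 68 sets of 5 libraries, the genes printed in full in control and the 1 mM groups, and 10 were found. The rule flags about 1 in 20 independent sets of normal values. These sets share libraries, some genes enter with both kinds of sums, and part were chosen after seeing the values. The count can therefore not be set against that rate. With quizalofop-p-ethyl at 1 mM, replicate 5 was far below the other 4 libraries for DHCR7, at 42.0 FPKM against 90.9 to 107 FPKM, and for CYP51A1, at 39.9 FPKM against 67.01 to 75.6 FPKM. The same library was lowest for SCAP, at 11.9 FPKM against 17.2 to 18.8 FPKM, and for INSIG1 with unnamed transcripts added, at 23.5 FPKM against 58.5 to 69.4 FPKM. With isoxaflutole at 1 mM, replicate 5 was lowest for LSS, at 14.5 FPKM against 22.6 to 24.0 FPKM. With mesotrione at 1 mM, replicate 4 was highest for SREBF2, at 41.2 FPKM against 2.75 to 6.70 FPKM in named transcripts, and at 42.9 FPKM against 20.1 to 22.3 FPKM with unnamed transcripts added. Replicate 3 of mesotrione was highest for SCAP, at 36.6 FPKM against 10.5 to 17.8 FPKM in named transcripts. In control, with unnamed transcripts added, replicate 1 was highest for INSIG1, at 58.2 FPKM against 43.8 to 46.9 FPKM, and replicate 2 was highest for FAXDC2, at 11.3 FPKM against 9.47 to 9.57 FPKM. The causes were not tested.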

How the results depend on the processing

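The count of 6 members with quizalofop-p-ethyl at 1 mM against control was 5 to 8 when each library was left out, and 2 in the fit of all 50 libraries, where SQLE (adjusted p = 0.134), MVD (0.32), LSS (0.268) and CYP51A1 (0.316) did not pass. That fit holds the shallow library at 10 uM and gave 3932 calls over all genes, against 6938. CYP51A1 had an adjusted p of 0.0596 with the compared groups alone, and LSS 0.0862 with no filter. Median-ratio scaling gave 8 members, 7 higher and 1 lower, with HSD17B7 (0.56, limma adjusted p = 0.0484) and NSDHL (0.34, 0.0466) added. It called 40.4% of all genes, 19.1% higher and 21.4% lower. HSD17B7 also passed without replicate 4 of quizalofop-p-ethyl (0.67, limma adjusted p = 0.0238). EBP passed without its replicate 1 (-0.55, 0.0294) or 3 (-0.51, 0.0433), and ACAT2 without its replicate 2 (-0.40, 0.0177). With unnamed transcripts added by overlap MYLIP reversed to -0.31, and with replicate 5 left out as well the count was 14, MYLIP stood at -0.287 and ACAT2 reversed to 0.326. Isoxaflutole at 1 mM had 1 member called with unnamed transcripts added, by locus and by overlap. Against mesotrione at 1 mM, quizalofop-p-ethyl had 9 members, 7 to 12 without a library, 4 with all 50 libraries and 14 with unnamed transcripts added by overlap. Calls over all genes rose with that last setting too, to 43.8% (18.6% higher, 25.1% lower), against 36.1% in the main fit. Against isoxaflutole it had 9, with 6 to 10 without a library, 5 with no filter, 1 with all 50 libraries and 4 with the groups alone. Against its lower doses it had 12, with 9 to 13 without a library and 6 with all 50 libraries, where PMVK reversed to 0.0393; ACAT2 reversed to 0.0288 with unnamed transcripts added either way. Isoxaflutole at 1 mM against its lower doses had 0 members, 1 with the replicate block, 1 with the groups alone, 3 with unnamed transcripts of the locus added, 4 by overlap and 0 to 2 without a library. Apart from the fits whose shares of all genes are given above, no share is given beside these counts. Those counts cannot be set against a background. The counts of 0 members in the other comparisons held in each alternative run. The replicate block ended no call and reversed none of 111 values of genes. Pairs in the same run of numbers more often had a correlation of deviations over 0.1. In the same run 30 of 216 pairs did (median of all pairs 0.03), against 37 of 864 pairs from other runs (median -0.0074). With the block, genes called at 1 mM against control went from 228 to 358 with mesotrione and from 640 to 828 with isoxaflutole. The main fit has no term for the runs, and what they stand for was not tested. FPKM gives no counts, and shallow libraries limit genes near 1 FPKM.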
